A study of Mus musculus with 6 samples.

Results

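The 9 genes described here carry, store, make, bind or sense retinoids, the vitamin A derivatives. They are Rbp4, Lrat, Rdh10, Aldh1a1, Aldh1a2, Aldh1a3, Crabp2, Rarb and Rarg, picked by name and matched by Ensembl ID to the rows of 6 tables of single-cell counts from mouse bladder mucosa. All 9 were listed in every table, out of 14338 genes used in all. Another 44 retinoid genes were sought as the rest of the pathway, of which 30 were listed in all tables.

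Cells store vitamin A as retinyl esters, which Lrat makes, and move retinol through blood and tissue fluid on Rbp4. Rdh10 oxidises retinol to retinaldehyde and the Aldh1a enzymes oxidise retinaldehyde to retinoic acid, which Crabp2 carries to the nucleus. There it binds receptors such as Rarb and Rarg, which pair with RXR proteins on response elements and turn genes on, Rarb among them, while Cyp26 enzymes degrade it. In bladder, vitamin A shortage is known to turn urothelium into squamous epithelium, and retinoic acid is known to act in urothelial differentiation and repair.

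All mice were wild type C57BL/6, 8 weeks old, and the mucosal layer of the bladder was peeled off and dissociated with collagenase IV and DNase I. Cyclophosphamide (CPP), a drug whose breakdown products injure the bladder lining, was given to the injured groups. The healthy group was not treated, the acute group was collected 48 hours after CPP, and the chronic group had 4 rounds of CPP over 11 days. Each group held 2 droplet libraries, in which every captured mRNA is tagged with a unique molecular identifier (UMI) and counted from its 3' end. The study used several mice per condition, so a library can pool animals. P-values between conditions measure the spread between libraries. Those between cell classes measure how far the difference within a library varies over libraries.

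The libraries held 54604109 to 111985678 UMIs over 5348 to 15062 barcodes, with a median of 5530 to 9138 UMIs per barcode. Pairs of libraries shared 36 to 229 barcode sequences, which were treated as different cells. Cells were clustered without the retinoid genes, and clusters were named from marker lists. Of the 50929 cells kept, 49077 fell into the classes used: 4501 basal, 28252 intermediate and 2685 superficial urothelial cells, 5605 fibroblasts and 4318 myofibroblasts among them. The study calls its Acta2+ Car3+ stromal cells myofibroblasts, and the class of that name here was rebuilt from markers that include both genes. Car3 stood at 2779 to 6530 counts per 1000000 UMIs (CPM) in these cells and at 24.4 to 609 CPM in fibroblasts. The class held 3701 low-contractile cells and 617 contractile cells, which were rich in smooth-muscle genes such as Acta2. The fibroblasts held 2117 Pi16/Mfap5, 1463 Has1/Scara5 and 1487 Inmt/Sct cells. Chronic replicate 2 held only 37 fibroblasts, so its subtypes were not used, and contractile cells were enough for a value in the healthy libraries and acute replicate 2 alone. When each library was clustered by itself, only 42 of the 1487 Inmt/Sct cells were given that name again, so this subtype depends on the joint clustering. The other names were kept in part, by 793 of 1463 Has1/Scara5 and 1302 of 2117 Pi16/Mfap5 cells. In the urothelium 3015 of 4501 basal, 24753 of 28252 intermediate and 2329 of 2685 superficial cells kept theirs. Among myofibroblasts 2704 of 3701 low-contractile and 448 of 617 contractile cells did.

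Levels are plain CPM of a class in 1 library, and are compared between classes for the same gene. Their total is the UMIs of the 14338 genes used, without mitochondrial and ribosomal genes. The share of UMIs this leaves out can differ between classes, and its part in the levels was not tested. Differences between classes are log2 fold changes from edgeR's quasi-likelihood test on UMIs summed per library, with the library as a block, a standard error (SE) and a p-value adjusted over all genes tested. A difference was called at an adjusted p under 0.05. The members fell into 3 patterns by their highest median. It was in myofibroblasts for Rbp4, Lrat and Aldh1a2, in fibroblasts for Aldh1a3, and in basal cells for Aldh1a1, Rarb and Rarg. Rdh10 and Crabp2 were spread over several classes, and the median of Rarg in Has1/Scara5 fibroblasts was close to that in basal cells. The plot of levels by class shows each library.

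**Figure D1:**
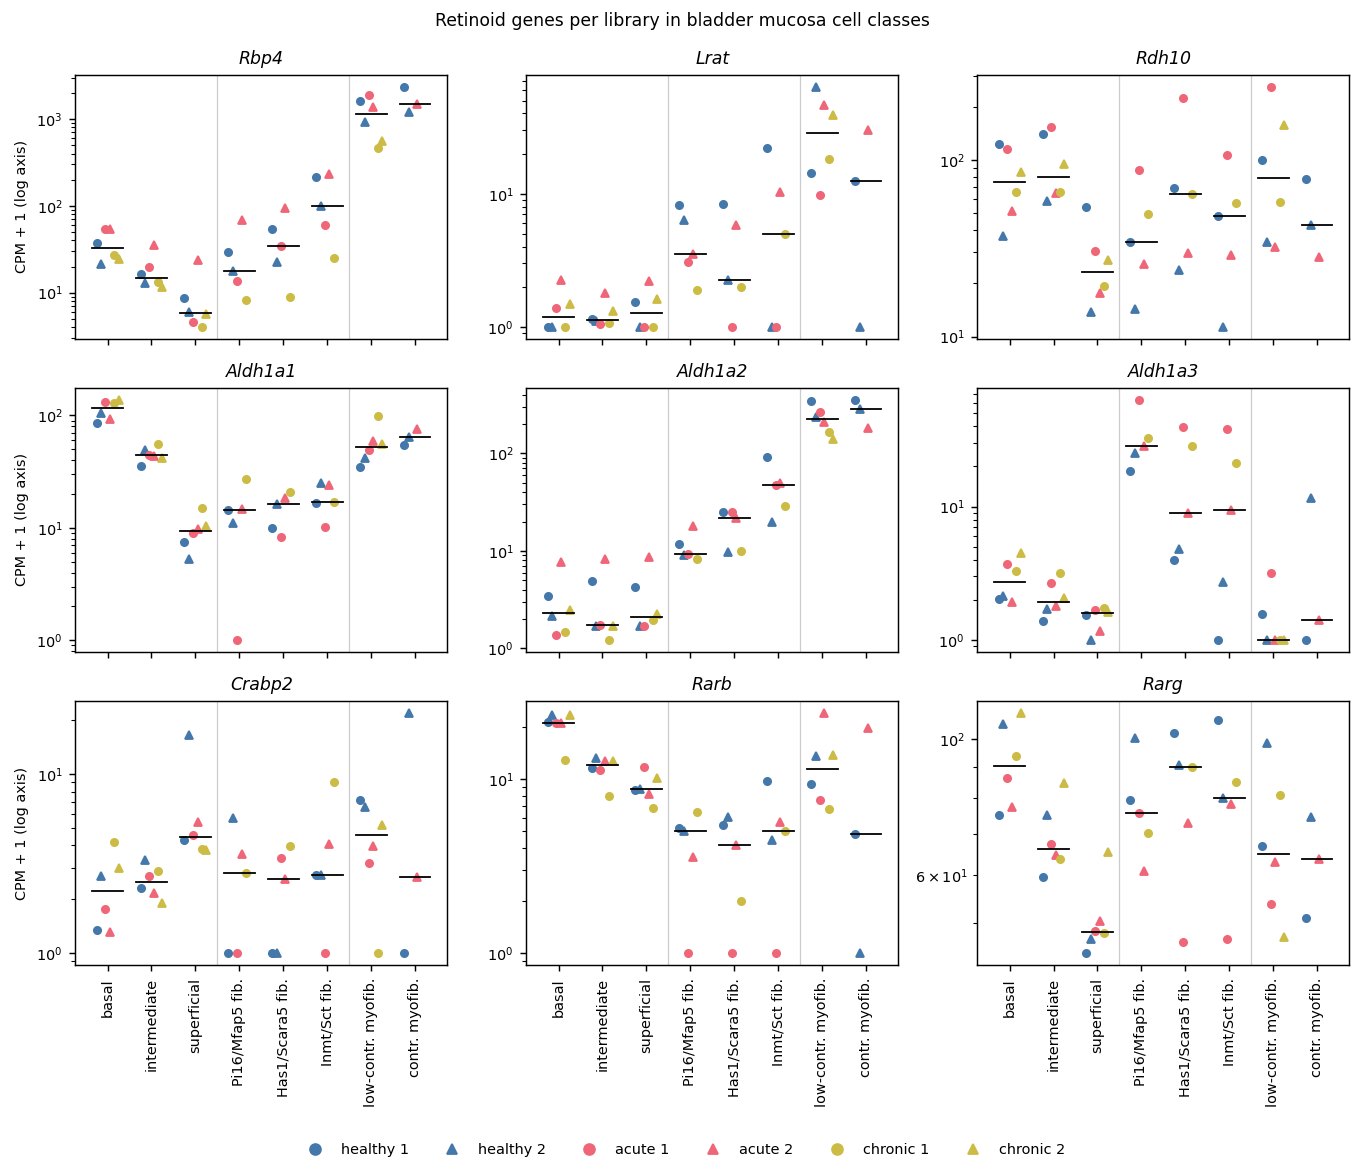
Level of the 9 retinoid genes (CPM + 1, log axis, each panel with its own range) in 3 urothelial layers, 3 fibroblast subtypes and 2 kinds of myofibroblasts; each point is 1 library, coloured by condition, and the black bar is the median of the libraries. Rbp4 and Aldh1a2 sit far higher in myofibroblasts than in any urothelial layer, Aldh1a3 sits higher in Pi16/Mfap5 fibroblasts than in low-contractile myofibroblasts, and Aldh1a1 steps down from basal to superficial cells.

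Rbp4, the carrier of retinol in blood, was highest in myofibroblasts in every library. Its gene (ENSMUSG00000024990) lies at chr19:38116629-38125281 on the minus strand of GRCm38. In myofibroblasts it stood at 1646 and 953 CPM in the healthy libraries, 1937 and 1394 CPM in the acute ones and 450.0 and 568 CPM in the chronic ones. In fibroblasts the same libraries gave 154, 51.4, 80.2, 214, 12.4 and 86.4 CPM. Every library thus had far more Rbp4 in its myofibroblasts, and the ranges of the classes did not overlap. The difference of fibroblasts from myofibroblasts was -3.86 ± 0.26 on the log2 scale (SE, edgeR adjusted p = 2.99e-08), 14.5-fold lower in 6 of 6 libraries. A UMI of Rbp4 was found in 47.1% to 93.0% of myofibroblasts per library, at a median of 2675 to 5407 UMIs per cell. In macrophages 0.943% to 9.16% of cells had one, at a median of 2816 to 5550.5 UMIs per cell. Ordered by median level, contractile (1475 CPM) and low-contractile myofibroblasts (1145 CPM) came first and overlapped, followed without overlap by Inmt/Sct fibroblasts (98.0 CPM), and each later neighbour down to superficial cells (4.82 CPM) overlapped the next.

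Aldh1a2 is the retinaldehyde dehydrogenase that makes most retinoic acid in embryonic mesenchyme. The gene (ENSMUSG00000013584) lies at chr9:71215789-71296243 on the plus strand. It stood at 345 and 241 CPM in healthy, 268 and 205 CPM in acute and 152 and 137 CPM in chronic myofibroblasts. In fibroblasts it stood at 70.1, 16.6, 36.6, 44.2, 10.4 and 50.4 CPM in the same order. The classes did not overlap, and fibroblasts were lower by a log2 difference of -2.83 ± 0.21 (SE, edgeR adjusted p = 8.99e-08), 7.13-fold, in 6 of 6 libraries. Over all urothelial cells of a library it stood at 0.408 to 6.99 CPM, which was 0.216% to 3.41% of the level in myofibroblasts of the same library. In the order of medians, both kinds of myofibroblasts stood above all other classes without overlap.

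Lrat, the enzyme that esterifies retinol for storage, was a gene of few UMIs. It (ENSMUSG00000028003) lies at chr3:82892579-82903973 on the minus strand. In myofibroblasts the libraries gave 13.3, 55.3, 7.55, 41.9, 15.2 and 36.3 CPM in the order above, from 3 to 454 UMIs. In fibroblasts they gave 1.20 to 9.16 CPM and in the urothelium 0.0544 to 0.965 CPM. Fibroblasts were lower than myofibroblasts in 6 of 6 libraries. The fitted log2 difference of -2.34 is a description, since Lrat reached the filter on low counts in 6 of 6 sums of myofibroblasts and 3 of 6 of fibroblasts. It fell under the filter when healthy replicate 1 or acute replicate 2 was left out. No neighbours in its order of classes were apart. In healthy replicate 1 the Inmt/Sct fibroblasts (20.9 CPM from 12 UMIs) stood above the myofibroblasts, and the contractile cells of healthy replicate 2 held 0 UMIs.

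These 3 genes were the members that varied together most. Over 68 sums of a class in a library, with at least 20 cells each, the correlation of log2(CPM + 1) was 0.85 between Aldh1a2 and Rbp4, 0.72 between Lrat and Rbp4 and 0.71 between Aldh1a2 and Lrat. The other pairs of members stayed between -0.33 and 0.41, and the sums share libraries, so that these values are descriptions. The genes most like Rbp4 in this measure were Car3 (0.90) and Dkk2 (0.89). Car3 was among the markers that named the myofibroblasts, so its likeness to a gene high in that class adds nothing to the levels. Those most like Aldh1a2 were Spon1 (0.96) and Bmp5 (0.93), and those most like Lrat were Sostdc1 (0.82) and Ntng1 (0.81).

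The 250 bases before the start of these genes, from RefSeq on GRCm38.p6, are printed here because the 3 genes had a common pattern. Capitals mark CCAAT, or its reverse complement ATTGG, a common promoter motif. Rbp4 has 2 starts, and its first window held no CCAAT and has no capitals. Aldh1a2 is chr9:71215539-71215788 (plus strand), Lrat chr3:82903975-82904224, Rbp4 from the downstream start chr19:38124812-38125061 and from the upstream start chr19:38125322-38125571 (all minus strand), each written 5′ to 3′.
Aldh1a2: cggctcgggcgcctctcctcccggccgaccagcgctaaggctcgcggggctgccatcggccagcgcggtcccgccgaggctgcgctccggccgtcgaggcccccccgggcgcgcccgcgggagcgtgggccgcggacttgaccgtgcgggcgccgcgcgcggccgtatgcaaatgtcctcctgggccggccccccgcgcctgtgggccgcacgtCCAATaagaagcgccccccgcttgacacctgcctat
Lrat: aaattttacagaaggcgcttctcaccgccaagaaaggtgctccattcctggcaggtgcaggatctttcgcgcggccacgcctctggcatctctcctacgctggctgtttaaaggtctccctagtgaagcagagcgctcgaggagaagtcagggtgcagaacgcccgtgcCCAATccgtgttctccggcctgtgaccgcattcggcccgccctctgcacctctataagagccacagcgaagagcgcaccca
Rbp4, first window: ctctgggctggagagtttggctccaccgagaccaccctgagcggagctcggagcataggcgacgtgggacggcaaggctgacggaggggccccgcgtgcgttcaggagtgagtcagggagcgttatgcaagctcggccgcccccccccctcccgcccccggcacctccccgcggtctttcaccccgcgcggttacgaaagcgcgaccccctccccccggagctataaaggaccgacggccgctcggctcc
Rbp4, second window: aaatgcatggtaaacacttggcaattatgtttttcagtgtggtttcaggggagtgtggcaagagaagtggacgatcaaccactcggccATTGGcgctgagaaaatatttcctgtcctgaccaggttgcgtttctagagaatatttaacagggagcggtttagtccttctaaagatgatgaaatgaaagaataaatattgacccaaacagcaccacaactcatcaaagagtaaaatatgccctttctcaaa

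The first base of CCAAT stood 36 bases before the start in Aldh1a2, 81 in Lrat and 162 in the second Rbp4 window. The motif was searched on both strands, like those that follow, and was found in 33.8% of 32851 promoters of this length. The first Rbp4 window held TATAAA 28 bases before the start, a motif of 12.4% of promoters. None of these 4 windows held AGGTCA, a nuclear receptor site (14.0% of promoters). These matches describe the letters of the windows only. Of the members, 6 had entries, with 9 windows in all. Aldh1a3, Rdh10 and Crabp2 had none.

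Aldh1a3, the third dehydrogenase, had the reverse pattern among stromal cells. Its gene (ENSMUSG00000015134) lies at chr7:66390890-66427517 on the minus strand. In fibroblasts it stood at 8.88 and 13.1 CPM in the healthy libraries, 46.7 and 13.3 CPM in the acute ones and 29.2 and 28.8 CPM in the chronic ones, from 4 to 73 UMIs. In myofibroblasts the 6 libraries held 5 UMIs together, and the level was 0 to 1.89 CPM. Fibroblasts were higher in 6 of 6 libraries. The fitted log2 difference of 5.15 rests on these few UMIs and is given as a description, since the gene was tested only because of its level in fibroblasts. Its highest level was in Pi16/Mfap5 fibroblasts (17.5, 24.0, 62.2, 27.3 and 31.9 CPM in the 5 libraries with enough cells), and all neighbours in the order of classes overlapped. Il7 (0.77) and Bglap (0.75) were the genes most like it.

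**Figure D2:**
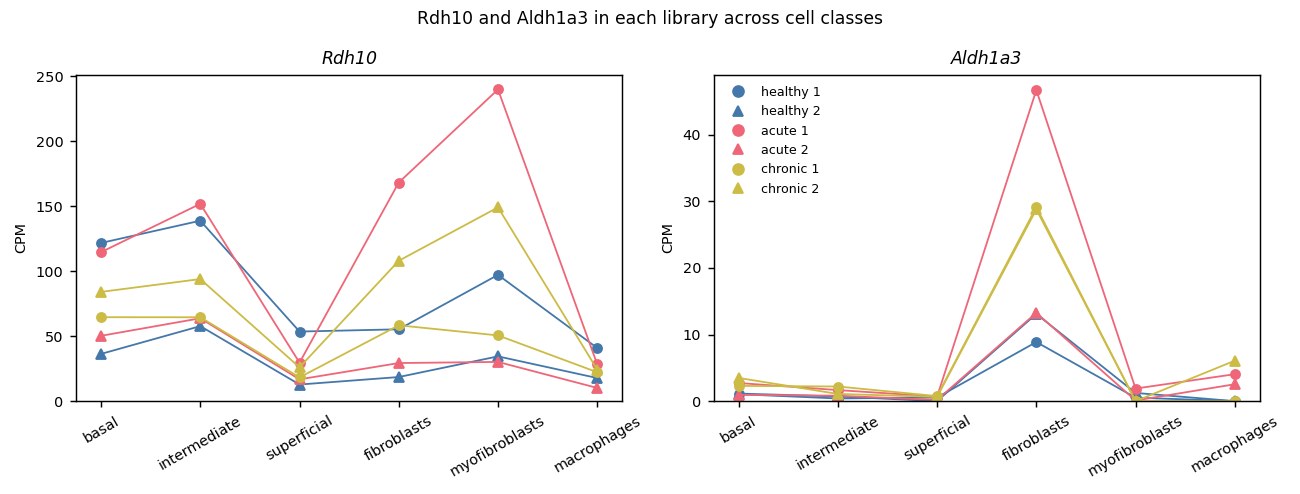
Levels of Rdh10 and Aldh1a3 (CPM) in 6 cell classes; each line joins the values of 1 library, coloured by condition with a circle for replicate 1 and a triangle for replicate 2. Aldh1a3 rises above 8 CPM in fibroblasts only, and the Rdh10 lines of healthy replicate 2 and acute replicate 2 run below those of the other libraries in the stromal classes.

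Rdh10, which oxidises retinol to retinaldehyde, was found in all layers and stromal classes. The gene (ENSMUSG00000025921) lies at chr1:16105774-16133734 on the plus strand. In intermediate cells it stood at 139, 57.7, 152, 63.7, 64.5 and 93.9 CPM, and in myofibroblasts at 97.1, 34.4, 239.8, 30.2, 50.6 and 149 CPM, both in the order healthy, acute, chronic. The libraries of 1 condition differed from each other: healthy replicate 1 was above healthy replicate 2 and acute replicate 1 above acute replicate 2 in all the urothelial layers and stromal classes with a value in both. Healthy replicate 1 and acute replicate 1 were also the libraries whose tables began at genes found in 8 and 6 cells, where the others began at 1 cell, and the part of this in the levels was not tested. Fibroblasts were lower than myofibroblasts by -0.53 ± 0.14 (log2, SE, edgeR adjusted p = 0.0134) in 5 of 6 libraries, a call that was lost without healthy replicate 1. Phf10 (0.72) and Scarb2 (0.70) were most like it.

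Aldh1a1, a retinaldehyde dehydrogenase that also clears other aldehydes, was highest in basal cells. Its gene (ENSMUSG00000053279) lies at chr19:20492715-20643465 on the plus strand. Basal cells held 83.9, 105, 132, 91.3, 127 and 137 CPM, intermediate cells 34.8 to 54.6 CPM and superficial cells 4.25 to 13.9 CPM. The 3 layers did not overlap. Myofibroblasts held 34.9, 43.0, 51.0, 61.8, 86.0 and 52.4 CPM against 10.9 to 21.6 CPM in fibroblasts, again with no overlap. The difference of fibroblasts was -1.70 ± 0.14 (log2, SE, edgeR adjusted p = 3.21e-07) in 6 of 6 libraries. In myofibroblasts Aldh1a1 reached 77.4% to 164% of the level in the urothelium of the same library, where the basal keratin Krt5 reached 6.32% to 16.8% and the uroplakin Upk2 5.65% to 31.2%. Nrg1 (0.71) and Frmd6 (0.67) were the genes most like it.

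Among the genes of binding and sensing, Crabp2 was too low for a firm order of classes. Crabp2 (ENSMUSG00000004885, chr3:87948666-87953376, plus strand), which hands retinoic acid to its receptors, held 0 to 60 UMIs per class and library in the layers and stromal classes, and 40 to 133 UMIs over a whole library. Its medians were 3.43 CPM in superficial cells and 3.59 CPM in low-contractile myofibroblasts. Rarb (ENSMUSG00000017491, chr14:16430839-16819156, minus strand), a receptor that is itself a target of retinoic acid, stood at 20.1, 22.3, 19.8, 19.9, 11.9 and 22.4 CPM in basal cells. It stood at 6.98 to 12.2 CPM in intermediate cells, at 5.06 to 22.0 CPM in myofibroblasts and at 0.779 to 21.6 CPM in fibroblasts, where the highest value is 3 UMIs of chronic replicate 2. Rarg (ENSMUSG00000001288, chr15:102234938-102257517, minus strand), the receptor of many epithelia, was found in every class and library, at 74.2 to 109 CPM in basal cells, 43.7 to 64.3 CPM in superficial cells, 56.8 to 93.0 CPM in fibroblasts and 48.3 to 94.7 CPM in myofibroblasts. S100a16 (0.76) and Arfgap3 (0.72) were most like Rarg.

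The Rarb promoter window in RefSeq (chr14:16575477-16575726, minus strand, GRCm38.p6) lies within the span of the gene given above. It is printed because it holds a direct repeat, a known type of retinoic acid response element. Capitals mark GTTCA, any 6 bases and GTTCA again, searched on both strands, which begins 52 bases before the start and was found in 22 of 32851 promoters (0.067%). The other windows of members did not hold these letters. Other spellings of such an element were not searched, so the share and the lack of matches describe this spelling alone.
Rarb: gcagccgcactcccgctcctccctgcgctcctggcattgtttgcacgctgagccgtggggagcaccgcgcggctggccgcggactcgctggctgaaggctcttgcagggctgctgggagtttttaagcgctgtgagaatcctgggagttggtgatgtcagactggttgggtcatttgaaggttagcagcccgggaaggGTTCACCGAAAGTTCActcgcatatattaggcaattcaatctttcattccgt

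The question of which cells make and sense retinoic acid was put as a series of differences between classes. Between all mesenchymal and all urothelial cells, 4 members were called higher and 1 lower of 9 tested, where 70.9% of all 13298 genes were called, 33.2% higher and 37.7% lower. The members' median difference was 0.65 on the log2 scale against -0.09 over all genes. It is a description, as the members were chosen with earlier results of these data known. Aldh1a2 (5.96 ± 0.36), Rbp4 (4.66 ± 0.47) and Aldh1a3 (3.59 ± 0.30) were among the higher ones (log2 difference ± SE), with edgeR adjusted p-values of 1.14e-07, 5.82e-06 and 1.41e-06. The other was Lrat, which reached the filter on low counts in 6 of 6 mesenchymal sums and 1 of 6 urothelial ones, so that its fitted difference of 5.70 is a description. Each of the 4 was higher in 6 of 6 libraries. Aldh1a1 was lower (-0.65 ± 0.21, adjusted p = 0.0185) in 5 of 6 libraries, and the call was lost without healthy replicate 2 (adjusted p = 0.0659). The share of myofibroblasts among the mesenchymal cells differed between libraries, and these sums carry that mixture. Fewer cells of a type and less RNA per cell cannot be told apart in such sums.

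**Figure D3:**
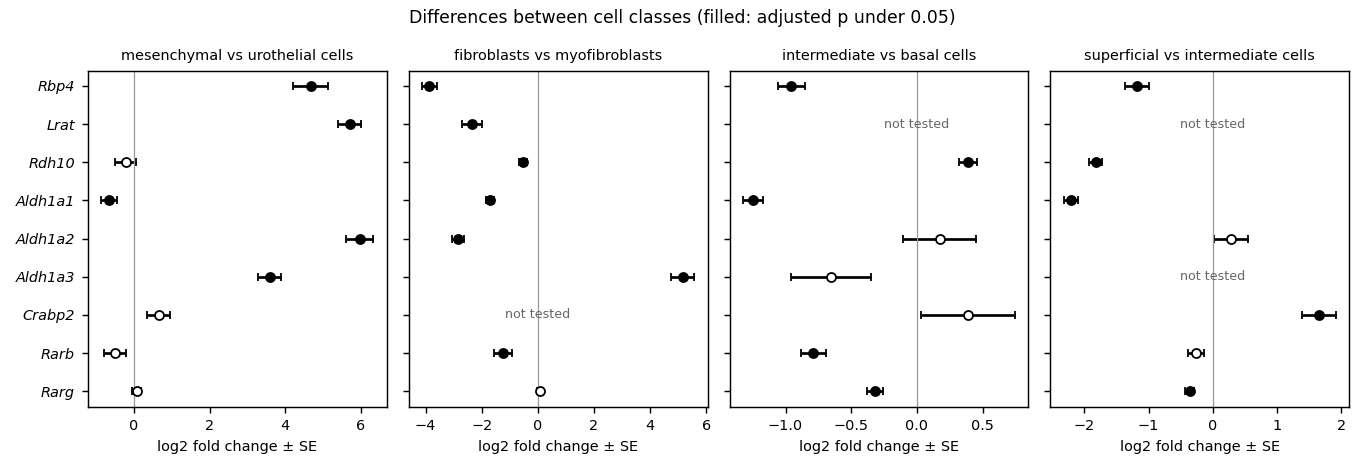
Log2 differences with standard errors (edgeR, library as a block) of the members between cell classes; filled points passed an adjusted p of 0.05 over all genes, open points did not, and members under the filter on low counts are marked as not tested. Aldh1a3 lies to the right and Rbp4, Aldh1a2, Lrat and Aldh1a1 to the left between fibroblasts and myofibroblasts, and Crabp2 is the filled point to the right between superficial and intermediate cells.

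Between fibroblasts and myofibroblasts, 1 member was called higher and 6 lower of 8 tested, where 21.0% of 9930 genes were called, 9.47% higher and 11.6% lower. The median of the members was -1.47 on the log2 scale against -0.01 over all genes. This median is a description, since it includes the fitted values of Aldh1a3, Lrat and Rarb, and the members were chosen with earlier results known. Beside the genes given above, Rarb was lower in fibroblasts in 5 of 6 libraries. Its fitted log2 difference of -1.24 is a description, since Rarb reached the filter on low counts in 5 of 6 sums of myofibroblasts and 3 of 6 of fibroblasts. Without healthy replicate 1 the number called was 4 and without acute replicate 2 it was 4 as well, since Lrat and Rarb then had too few UMIs to be tested, the Rdh10 call was lost in the former case, and Aldh1a3 was not tested in the latter. Aldh1a3 passed the filter on low counts through its UMIs in fibroblasts, and Lrat and Rarb mostly through those in myofibroblasts. The calls of these 3 genes, which the counts include, add nothing to their levels. Rarg had a difference of 0.08 with a 95% interval of -0.15 to 0.32, and Crabp2 was not tested.

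Of the other retinoid genes, 9 were called higher and 13 lower of 27 tested in mesenchymal against urothelial cells, where 70.9% of all genes were called. Those named here are Rarres2 (6.23), which is induced by retinoids and encodes chemerin, Lpl (4.33), a lipoprotein lipase, and Tgm2 (3.16), a transglutaminase known as a retinoic acid target. Between fibroblasts and myofibroblasts 3 were called higher and 2 lower of 21, where 21.0% of all genes were called. Lpl (0.93) was higher in fibroblasts, and Tgm2 (-1.04) and Fabp5 (-0.87), a carrier of fatty acids and retinoic acid, were lower (log2 differences).

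Within the fibroblasts the members split by subtype. Over 5 libraries the Inmt/Sct cells held 212, 98.0, 59.9, 229 and 24.0 CPM of Rbp4 (healthy, acute, chronic replicate 1), the Has1/Scara5 cells 53.7, 21.5, 33.7, 94.2 and 7.91 CPM and the Pi16/Mfap5 cells 28.4, 16.7, 12.4, 68.4 and 7.28 CPM. The libraries differed more than the subtypes did, but the order was the same in each of them. The Inmt/Sct cells also held more Car3, at 88.2 to 626 CPM against 6.22 to 161 CPM in Pi16/Mfap5 cells. Myofibroblast markers together (6 of 6 listed) summed to 429 to 2226 CPM against 170 to 899.7 CPM, and their part in the difference was not tested.

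Against Pi16/Mfap5 cells, the Inmt/Sct cells had 2 members called higher and 1 lower of 6 tested, where 8.14% of all genes were called, 4.07% higher and 4.06% lower. Rbp4 was higher (2.25 ± 0.18, edgeR adjusted p = 3.05e-07) in 5 of 5 libraries. The calls of Aldh1a2 (fitted difference 2.09) and Aldh1a3 (-1.71) are descriptions, though each had its direction in 5 of 5 libraries. Aldh1a2 reached the filter on low counts in 5 of 5 Inmt/Sct sums and 1 of 5 Pi16/Mfap5 sums, and Aldh1a3 in 2 and 5. The Has1/Scara5 cells had 2 higher and 1 lower of 5 tested, where 14.0% of all genes were called, 6.43% higher and 7.57% lower. Rdh10 was higher (0.81 ± 0.16, adjusted p = 0.000996) and Rbp4 was higher (0.60 ± 0.18, adjusted p = 0.0278), each in 5 of 5 libraries. Aldh1a3 (-1.07) reached the filter in 5 of 5 Pi16/Mfap5 sums and 2 of 5 Has1/Scara5 sums, so that its call is a description, and it was lost with clusters built without integration. The Rbp4 call was lost by DESeq2 and without either healthy or either acute library. Between the Inmt/Sct and Has1/Scara5 cells 2 of 4 members were higher and 1 lower, where 10.4% of genes were called, 4.43% higher and 6.00% lower. These were Rbp4 (1.60 ± 0.16) and Rdh10 (-0.62 ± 0.19), with edgeR adjusted p-values of 6.09e-07 and 0.0401, and Aldh1a2 (1.43), which reached the filter in 5 of 5 Inmt/Sct sums and 3 of 5 Has1/Scara5 sums and is a description. The Rdh10 call was lost by DESeq2 and without healthy replicate 1, healthy replicate 2 or acute replicate 1. Clusters built without integration gave too few Inmt/Sct cells for either of its comparisons. Of the other retinoid genes, 3 were called higher and 5 lower of 19 in Has1/Scara5 against Pi16/Mfap5 cells, among them Lpl (-0.62), Nrip1 (0.51) and Adh5 (-0.49) as log2 differences. In Inmt/Sct against Pi16/Mfap5 cells 2 of 19 were higher (Fabp5, 0.59, and Tgm2, 0.39) and 2 lower, Rarres2 (-0.36) among them. Adh5 (0.60) was the 1 gene called of 18 between Inmt/Sct and Has1/Scara5 cells.

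Low-contractile and contractile myofibroblasts could be compared in 3 libraries. Rbp4 stood at 1595, 921 and 1370.4 CPM in the low-contractile cells of healthy replicates 1 and 2 and acute replicate 2, and at 2359, 1199 and 1475 CPM in their contractile cells. Aldh1a2 stood at 344, 235 and 211 CPM against 355, 284 and 182 CPM. No member of 7 tested was called by edgeR, where 2.05% of all genes were, and 3 had an unadjusted p under 0.05. These were Rbp4 (-0.34 ± 0.12, 95% interval -0.58 to -0.09), Lrat (0.75 ± 0.28) and Aldh1a1 (-0.47 ± 0.19), as low-contractile minus contractile, with adjusted p-values of 0.221, 0.235 and 0.313. DESeq2 called none either. For Aldh1a2 the interval of the difference ran from -0.24 to 0.32.

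In the urothelium Aldh1a1, Rbp4 and Rarg were called lower at both steps from the basal layer to the surface. The other members were not: Rarb was called at the first step only, Rdh10 was higher and then lower, Crabp2 was higher at the second step, and Aldh1a2 was called at neither, while Aldh1a3 and Lrat were low throughout. Between intermediate and basal cells 1 member was called higher and 4 lower of 8 tested, where 47.4% of 12128 genes were called, 22.6% higher and 24.8% lower. Aldh1a1 (-1.25 ± 0.08, edgeR adjusted p = 1.31e-10), Rbp4 (-0.95 ± 0.10, adjusted p = 3.66e-07), Rarb (-0.79 ± 0.09, adjusted p = 8.57e-07) and Rarg (-0.32 ± 0.06, adjusted p = 0.000185) were lower in 6 of 6 libraries. Rdh10 was higher (0.39 ± 0.07, adjusted p = 0.000153) in 5 of 6 libraries, and not with clusters built without integration. Rdh10 stood at 122, 36.3, 115, 50.2, 64.6 and 84.0 CPM in basal cells.

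Between superficial and intermediate cells 1 member was called higher and 4 lower of 7 tested, where 55.6% of 12104 genes were called, 27.7% higher and 27.9% lower. Aldh1a1 (-2.21 ± 0.11, edgeR adjusted p = 7.90e-12) and Rdh10 (-1.83 ± 0.10, adjusted p = 4.70e-11) were lower in superficial cells by 4.62-fold and 3.55-fold. Rbp4 (-1.18 ± 0.18, adjusted p = 2.16e-05) and Rarg (-0.36 ± 0.07, adjusted p = 0.000213) were lower as well, and Crabp2 was higher (1.65 ± 0.27, adjusted p = 3.57e-05). Each of the 5 had its direction in 6 of 6 libraries. Crabp2 stood at 3.28, 15.6, 3.59, 4.41, 2.82 and 2.77 CPM in superficial cells against 0.919 to 2.34 CPM in intermediate cells, from 6 to 25 UMIs in the superficial sums. Superficial cells of healthy replicate 2 were the highest. The median per library was 10246 to 22461 UMIs per superficial cell and 5837 to 11199 per intermediate cell, so a lower share of UMIs need not be fewer UMIs per cell. A UMI of Rarg was found in 27.2% to 43.6% of superficial and 21.6% to 32.7% of intermediate cells.

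Of 26 other retinoid genes, 9 were called higher and 10 lower in intermediate than in basal cells, where 47.4% of all genes were called, and no test set the list against that share. Cyp26b1 (-2.05), which degrades retinoic acid, Lpl (-1.17), Bco2 (1.88), a carotenoid oxygenase, and Fabp5 (1.23) had the largest differences on the log2 scale. In superficial against intermediate cells 8 of 27 were higher and 11 lower, where 55.6% of all genes were called. Ttr (2.78), which carries Rbp4 in blood, Lpl (1.31) and Adh1 (1.27), an alcohol dehydrogenase that can oxidise retinol, were higher and Cyp26b1 (-1.38) was lower. Whole libraries held only 40 to 668 UMIs of Lpl, 42 to 167 of Cyp26b1 and 34 to 186 of Bco2. Lpl was far higher in mesenchymal cells, and the part of free RNA in its urothelial levels was not tested.

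The low Rbp4 of urothelial cells was set against genes of myofibroblasts in the same cells, since free RNA of lysed cells gives UMIs in cells that do not express a gene. Basal cells held 36.7, 20.2, 52.8, 53.4, 26.1 and 23.4 CPM of Rbp4 in the order healthy, acute, chronic, which was 2.12% to 5.80% of the level in myofibroblasts of the same library. Car3 in the same cells reached 0.0582% to 1.66% of its level in myofibroblasts, and Cxcl14 0.151% to 1.83%. In superficial cells Rbp4 reached 0.185% to 1.64% of the myofibroblast level, Car3 0.0662% to 1.41% and Cxcl14 0.0922% to 1.91%. There Cxcl14 had the higher share in healthy replicate 1 (0.889% against 0.464% for Rbp4) and acute replicate 2 (1.91% against 1.64%). The part of free RNA in these levels was not tested. From basal to intermediate cells Rbp4 was lower as given above while Car3 differed by 0.01 ± 0.10 and Cxcl14 by 0.09 ± 0.09 (log2, SE, edgeR adjusted p = 0.976 and 0.468). From intermediate to superficial cells they differed by 0.09 ± 0.12 and 0.20 ± 0.10 (adjusted p = 0.697 and 0.122). Aldh1a2 in the urothelium followed neither step, with differences of 0.17 ± 0.28 and 0.28 ± 0.26 and adjusted p-values of 0.643 and 0.39.

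**Figure D4:**
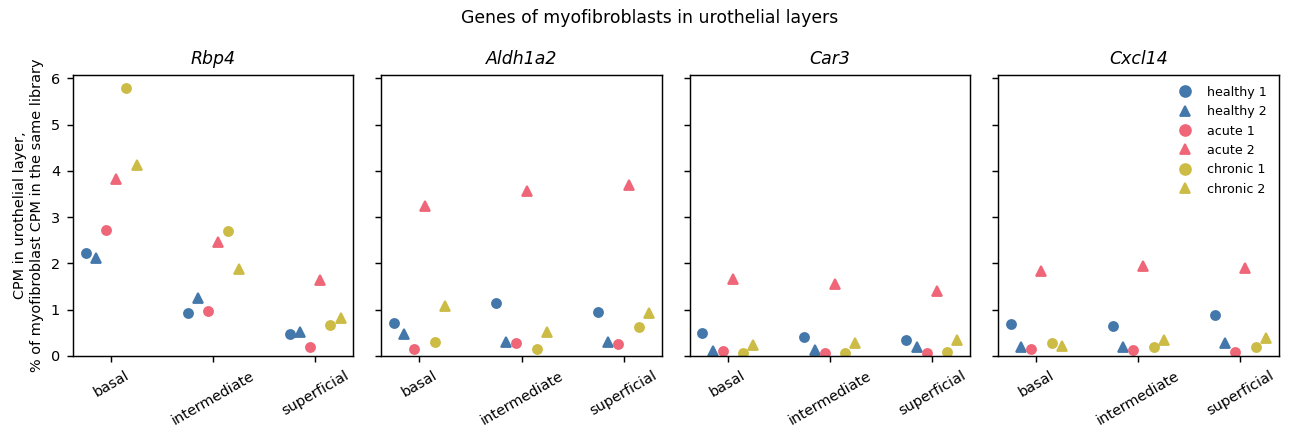
Levels of Rbp4, Aldh1a2 and the myofibroblast markers Car3 and Cxcl14 in 3 urothelial layers, as a percentage of the level in myofibroblasts of the same library; each point is 1 library, coloured by condition. Rbp4 steps down over the layers in 6 of 6 libraries, Car3 in 3 (healthy replicate 1 and both acute ones), Cxcl14 in 1 (acute replicate 1) and Aldh1a2 in 0, and acute replicate 2 stands highest for Aldh1a2, Car3 and Cxcl14.

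Injury was then compared within classes, with the 3 conditions in 1 edgeR fit per class. Over 12 comparisons (2 injuries in the urothelium, its 3 layers, fibroblasts and myofibroblasts), no member was called in 86 tests. An unadjusted p under 0.05 was found in 10 of the tests by edgeR and in 11 by DESeq2, which called none either. Of all genes, 0.00723% were called in acute urothelial cells, 0.0976% in acute fibroblasts, 0.0710% in chronic fibroblasts and 0% in each of the other comparisons. None of 298 tests of the other retinoid genes was called. The differences below are those with an unadjusted edgeR p under 0.05 or of members described above, none of which passed the adjustment, so they are descriptions. With 2 libraries against 2, groups that do not overlap give an exact two-sided permutation p of 0.333, the smallest possible, and both injuries share the healthy libraries.

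In myofibroblasts Rbp4 and Aldh1a2 had the lowest values after chronic injury. The chronic libraries, at 450.0 and 568 CPM of Rbp4, lay below both healthy ones (1646 and 953 CPM), and the difference was -1.39 ± 0.37 on the log2 scale (95% interval -2.22 to -0.56, edgeR adjusted p = 0.859). Aldh1a2, at 152 and 137 CPM against 345 and 241 CPM, gave -1.07 ± 0.33 (95% interval -1.81 to -0.32, edgeR adjusted p = 0.859). Without the filter on low counts the Rbp4 difference was called (-1.45 ± 0.35, adjusted p = 0.0141), and without healthy replicate 1 it was -0.93 ± 0.38. The chronic libraries held 85 and 80 myofibroblasts. In low-contractile cells alone the chronic libraries held 457 and 562 CPM of Rbp4 against 1595 and 921 CPM. The myofibroblast markers Car3 and Cxcl14 differed by -0.07 ± 0.36 and -0.28 ± 0.31 between the same groups. Urothelial markers (6 of 6 listed) summed to 534 and 1599 CPM in healthy, 498 and 1022 CPM in acute and 2857 and 1172 CPM in chronic myofibroblasts, and their part was not tested. In the acute libraries Rbp4 (0.38 ± 0.35) and Aldh1a2 (-0.29 ± 0.31) overlapped the healthy ones.

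**Figure D5:**
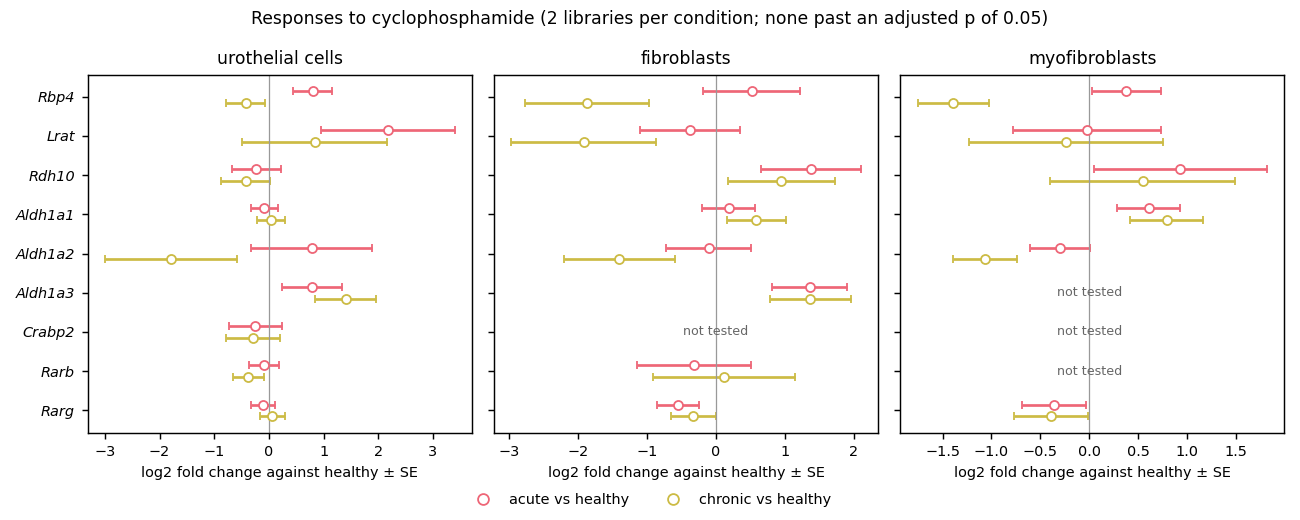
Log2 differences of acute and chronic libraries from healthy ones with standard errors (edgeR, 2 libraries per condition, axes differ between panels) in urothelial cells, fibroblasts and myofibroblasts. No point passed an adjusted p of 0.05. In myofibroblasts Rbp4 and Aldh1a2 lie at -1.39 and -1.07 after chronic injury, and Aldh1a3 lies near 1.36 after both injuries in fibroblasts.

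In fibroblasts Aldh1a3 was above both healthy libraries after either injury. The values of 46.7 and 13.3 CPM in acute and 29.2 and 28.8 CPM in chronic libraries stood against 8.88 and 13.1 CPM, though acute replicate 2 exceeded healthy replicate 2 by little. The differences were 1.36 ± 0.54 (edgeR adjusted p = 1.00) and 1.37 ± 0.59 (edgeR adjusted p = 0.80). Rbp4 gave -1.87 ± 0.89 in chronic fibroblasts, with overlapping libraries. Rdh10 gave 1.38 ± 0.72 and 0.95 ± 0.78, with acute replicate 2 at 29.3 CPM between healthy libraries at 55.3 and 18.5 CPM. The chronic libraries, at 58.3 and 108 CPM, lay above both healthy ones, replicate 1 by little and replicate 2 from 15 UMIs. Urothelial markers (6 of 6 listed) summed to 497 and 1645 CPM in healthy, 490.5 and 1245 CPM in acute and 2171 and 3109.7 CPM in chronic fibroblasts, and their part was not tested. Inmt/Sct cells were 812 of 1644 fibroblasts in acute replicate 2, 178 of 965 in healthy replicate 1 and 132 of 1188 in chronic replicate 1. All sums of fibroblasts after injury carry such mixtures, whose part was not tested. Within each subtype Aldh1a3 was above both healthy libraries in the acute ones, from few UMIs outside the Pi16/Mfap5 cells.

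In basal cells Rbp4 was above both healthy libraries after acute injury, at 52.8 and 53.4 CPM against 36.7 and 20.2 CPM. The difference was 0.96 ± 0.33 (edgeR adjusted p = 1.00), and in intermediate cells it was 1.01 ± 0.35 (edgeR adjusted p = 1.00). In intermediate cells the acute libraries held 18.6 and 34.3 CPM against 15.3 and 12.0 CPM, and in superficial cells 3.59 and 22.9 CPM against 7.65 and 4.96 CPM, so that acute replicate 2 was the higher one in both layers and superficial cells overlapped. The myofibroblast markers in basal cells (6 of 6 listed, with Hhip at 0 in 4 libraries) summed to 77.3 and 26.7 CPM in healthy, 24.9 and 402 CPM in acute and 22.9 and 29.8 CPM in chronic libraries. The sum was highest in acute replicate 2, and its part in the Rbp4 levels was not tested. In urothelial cells as a whole Aldh1a3 was above both healthy libraries after chronic injury (1.40 ± 0.56, edgeR adjusted p = 0.651), at 1.90 and 1.19 CPM against 0.456 and 0.736 CPM. In superficial cells after chronic injury Crabp2 gave -1.76 ± 0.68 and Aldh1a1 1.04 ± 0.42, both with an edgeR adjusted p of 0.998. For Crabp2 the healthy values were 3.28 and 15.6 CPM and the chronic ones 2.82 and 2.77 CPM, so that healthy replicate 2 set the difference.

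The receptors showed no called difference after injury in the 6 classes tested. Rarg was below both healthy libraries (85.3 and 93.0 CPM) in acute (56.8 and 65.2 CPM) and chronic fibroblasts (77.9 and 64.8 CPM), with differences of -0.55 ± 0.31 and -0.33 ± 0.32 (edgeR adjusted p = 1.00 and 0.98). In acute myofibroblasts the difference was -0.36 ± 0.33 (edgeR adjusted p = 1.00). In superficial cells Rarg was above both healthy libraries after either injury (0.08 ± 0.25 and 0.27 ± 0.25). In the urothelium as a whole Rarg differed by -0.11 ± 0.22 after acute injury (95% interval -0.63 to 0.41) and by 0.06 ± 0.22 after chronic injury (-0.46 to 0.59), and Rarb by -0.09 ± 0.28 (-0.74 to 0.57) and -0.38 ± 0.28 (-1.03 to 0.28). Aldh1a1 differed by -0.09 ± 0.25 and 0.04 ± 0.25, the last with an interval of -0.56 to 0.63. In myofibroblasts, however, it was above both healthy libraries (34.9 and 43.0 CPM) after acute (51.0 and 61.8 CPM) and chronic injury (86.0 and 52.4 CPM), with differences of 0.61 ± 0.33 and 0.79 ± 0.37 (edgeR adjusted p = 1.00 and 0.859). In basal cells (127 and 137 CPM against 83.9 and 105 CPM) and fibroblasts the chronic libraries were above both healthy ones as well, by 0.50 ± 0.27 and 0.58 ± 0.43 (edgeR adjusted p = 0.997 and 0.956). The fibroblasts of chronic replicate 2 held 3 UMIs of Aldh1a1 in 37 cells. Krt5 reached 15.7% and 54.2% of its urothelial level in fibroblasts of chronic replicates 1 and 2, and the part of urothelial RNA in the Aldh1a1 level was not tested. Whether a response differed between classes was tested as an interaction for 12 pairs of classes and injuries. None of 100 tests of members passed, the lowest adjusted p was 0.3 and 11 had an unadjusted p under 0.05. Of all genes, 0 to 14 of the 11259 to 13889 tested were called per pair and injury, so calls were rare for any gene.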

How the data were processed

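Single-cell RNA of peeled mouse bladder mucosa was measured with droplet libraries in 6 samples, 2 each of healthy, acute and chronic mice. The authors deposited UMI counts per gene and cell in 1 table per library, made with Cell Ranger on mm10 per the submitters' processing notes. The highest mitochondrial share of a cell in them was 10.0%. The table of healthy replicate 1 ended within its last line, and that 1 line was left out.

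Genes listed in all 6 tables and neither mitochondrial nor ribosomal were used (14338). Cells with more than 500 genes and a mitochondrial share below 10% were kept. Doublets were called from simulated doublets at a rate of 0.8% per 1000 cells and removed, and 1 cluster with over 33.3% called cells was left out. Libraries were integrated with Seurat 5.3.0 and sctransform 0.4.2 on 3000 genes, and clustered with Leiden (leidenalg 0.10.2, 20 neighbours, resolution 0.8) on 30 components without the retinoid genes. Clusters were named from marker lists with thresholds set after the clusters were seen. The members and lists were chosen with earlier results of these data known. The named genes are all members, the 4 other retinoid genes of largest difference among those called in a comparison, and the 2 genes most correlated with each member of at least 20 CPM in 1 class. Some genes that this rule picks are not reported here.

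For each class, the counts of its cells in a library were added up where there were 20 cells or more. edgeR 4.0.16 (R 4.3.3) tested the sums with TMM factors, filterByExpr and the quasi-likelihood test, p-values being adjusted by Benjamini-Hochberg over all genes tested. Conditions were compared over 6 libraries without a block and classes with the library as a block. Standard errors are the log2 fold change over the root of the F statistic, and intervals use the t distribution with the degrees of freedom of the fit. Scripts were tested on simulated data. The alternatives were DESeq2 1.42.0, RLE factors, no filterByExpr, a stricter choice of cells (more than 1000 genes, mitochondrial share below 5%), doublets kept, clusters without integration, the block changed, and each library left out. Shares of cells with a UMI cover counting error only. Promoters and motifs came from RefSeq (GRCm38.p6), the same build as mm10.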

Additional observations from a re-analysis of the deposited data

How the results depend on the processing

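Of 31 called differences of members, 364 of 390 alternatives kept direction and call, 26 lost the call and 0 reversed. Of 1393 alternatives to values that were not called, 99 had another sign and 7 were called. These were Rbp4 without the filter on low counts (below), Crabp2 in mesenchymal against urothelial cells with stricter cells and without acute replicate 1, Rarb there without acute replicate 2, Aldh1a3 between intermediate and basal cells with doublets kept, and Rarb between superficial and intermediate cells with doublets kept and without acute replicate 1. Between fibroblasts and myofibroblasts 4 to 7 members were called when each library was left out, the 4 being without healthy replicate 1 or acute replicate 2. Without the library block 2 members were called between intermediate and basal cells, 0 between Has1/Scara5 and Pi16/Mfap5 fibroblasts, 1 between Inmt/Sct and Pi16/Mfap5 fibroblasts and 0 between Inmt/Sct and Has1/Scara5 fibroblasts. Of the 13 calls lost without it, the other 2 were Rdh10 between fibroblasts and myofibroblasts (edgeR adjusted p = 0.702) and Rbp4 between superficial and intermediate cells (0.128). DESeq2 called 1 member between Has1/Scara5 and Pi16/Mfap5 fibroblasts and 1 between Inmt/Sct and Has1/Scara5 fibroblasts, where it gave no adjusted p for Aldh1a3 and Aldh1a2 respectively. Without the filter on low counts 1 member, Rbp4, was called in chronic against healthy myofibroblasts, with a log2 fold change of -1.45 and an edgeR adjusted p of 0.0141. Its adjusted p ranged from 0.0141 to 0.997 over the alternatives. Clusters without integration gave too few Inmt/Sct fibroblasts for their comparisons, and both kinds of myofibroblasts in 1 library only.

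With the replicate number as a block, 0 members were called in each of the 12 comparisons of conditions, as without it. The deviations of same-numbered libraries correlated at 0.142 to 0.426 between healthy and acute libraries. Between healthy and chronic the values were -0.304 to -0.034, and between acute and chronic -0.146 to -0.0211. The number was not used as a block in the main tests. The study states that its samples were handled in batches, and the labels do not say which. Whether libraries of different conditions shared a batch, and its part in the differences after injury, was not tested. There were 2 libraries per condition and few UMIs of Lrat, Aldh1a3 and Crabp2. The smallest change after injury that could be called was not worked out, so a lack of calls does not show that levels were unchanged.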
